A study of Homo sapiens with 6 samples.

Results

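ZNF585B and 7 neighbouring zinc finger genes, ZNF585A, ZNF383, HKR1, ZNF527, ZNF569, ZNF570 and ZNF793, were followed in human nuclei of teratomas. They are 8 of 38606 human features in the deposited matrices, chosen by symbol because they lie around ZNF585B in band 19q13.12, and all 8 were found (HKR1 is listed there as ZNF875 and was matched by its gene identifier, ENSG00000181666). ZNF585B itself was picked because its level was lower in knockout than in wild-type teratomas, so the values of these genes in that comparison are a description and carry no test. The study used H1, an established human embryonic stem cell line, in 3 groups of 2 libraries each: wild type for the long non-coding RNA LNCPRESS1 (WT), its knockout (KO), and a line called ΔATG (DATG in the sample titles), with a sequence change that is not described by the labels. Cells of each line were injected with matrigel into the flank of NSG mice, which lack a working immune system, and the teratomas, tumours that hold tissues of several germ layers, were frozen. Nuclei were isolated on a Singulator and profiled with the 10x 3′ v3.1 chemistry, which counts RNA molecules near their 3′ end by unique molecular identifier (UMI). Whether the 2 libraries of a group came from separate tumours or clones is not in the labels. P-values therefore reflect only how far these samples spread, which may be technical.

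The members encode zinc finger proteins of the KRAB type. In such a protein an array of zinc fingers reads a DNA sequence, often within a transposable element, and the KRAB domain recruits the scaffold TRIM28, which brings the methyltransferase SETDB1 and leads to trimethylation of histone H3 at lysine 9. The genes arose by repeated duplication and lie in clusters, many of them on chromosome 19, so that neighbours are often paralogs of each other.

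After filtering, 49794 human nuclei remained, from 5296 to 11053 per library, with 21916445 to 34657924 human UMIs per library and median depths from 2449 to 3872.5 UMIs. DATG replicate 2 stood apart with 3649 barcodes that mixed human and mouse RNA, against 513 to 1095 in the other libraries, and the log2 CPM (UMI counts scaled to a common library size) of the DATG pair correlated at 0.905, against 0.976 for the WT and 0.980 for the KO pair. Pairs of libraries shared 12 to 51 barcode sequences. Mitochondrial genes held 0.489% and 0.535% of human UMIs in DATG, while the WT libraries had 0.172% and 0.0784% and the KO libraries 0.174% and 0.112% (replicates 1 and 2, the order used throughout). Clusters rebuilt from fixed markers gave 13 named classes, called "-like", while 10 of 32 clusters with 19996 nuclei stayed unnamed. LNCPRESS1, the targeted gene, had 6 and 2 UMIs in WT, 3 and 0 in KO, then 1 and 3 in DATG, too few to check the labels.

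In the GENCODE 29 annotation of GRCh38, ZNF585A (ENSG00000196967) lies on chromosome 19 from 37106734 to 37172741 and ZNF585B (ENSG00000245680) from 37181579 to 37218153, both on the minus strand. The start of ZNF383 (37217926 to 37248738, plus strand) overlaps the start of ZNF585B on the opposite strand. HKR1 (37312837 to 37369365), ZNF527 (37371061 to 37393066), ZNF570 (37467585 to 37488652) and ZNF793 (37506939 to 37548762) follow on the plus strand, and ZNF569 (37411155 to 37469275) on the minus strand, with its start overlapping that of ZNF570. All 8 are protein-coding genes. The use of strand in the counting, not given in the sources used here, decides whether reads from the overlapping ends can be told apart.

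ZNF585A and ZNF585B are paralogs, and the likeness reaches into their promoters. The windows from 250 bases before to 50 after the start (300 bases, RefSeq, GRCh38.p14) are shown for this pair and for ZNF383, the gene whose start meets that of ZNF585B. Capitals mark 2 short motifs searched on both strands, an ETS factor core (CCGGAAGT) and a YY1 core (ATGGCG), whose letters were chosen after the sequences were seen.
ZNF585A, chr19:37172646-37172945, minus strand: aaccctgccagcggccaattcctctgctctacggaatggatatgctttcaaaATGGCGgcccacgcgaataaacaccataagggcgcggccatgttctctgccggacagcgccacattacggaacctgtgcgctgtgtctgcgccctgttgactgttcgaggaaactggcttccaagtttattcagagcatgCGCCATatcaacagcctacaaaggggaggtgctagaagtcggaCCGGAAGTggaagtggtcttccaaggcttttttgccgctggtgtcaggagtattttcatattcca
ZNF585B, chr19:37210487-37210786, minus strand: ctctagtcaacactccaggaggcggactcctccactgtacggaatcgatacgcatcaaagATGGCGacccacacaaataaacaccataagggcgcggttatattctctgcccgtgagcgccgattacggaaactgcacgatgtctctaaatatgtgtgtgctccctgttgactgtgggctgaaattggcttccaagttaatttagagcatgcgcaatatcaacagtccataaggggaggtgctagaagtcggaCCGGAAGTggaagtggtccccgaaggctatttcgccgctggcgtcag
ZNF383, chr19:37217964-37218263, plus strand: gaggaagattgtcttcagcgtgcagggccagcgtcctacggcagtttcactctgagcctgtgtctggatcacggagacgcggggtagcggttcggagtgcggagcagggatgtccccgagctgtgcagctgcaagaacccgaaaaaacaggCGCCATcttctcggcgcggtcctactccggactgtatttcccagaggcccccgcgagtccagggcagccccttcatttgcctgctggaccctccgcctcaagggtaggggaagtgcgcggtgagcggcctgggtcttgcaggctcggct
In a pairwise alignment 230 of 280 aligned bases (82.1%) of the ZNF585A and ZNF585B windows were identical, against 52.1% to 66.7% for the other pairs among the first windows of the 8 genes. Both hold the ETS core at a like place near the start and the YY1 core near the far end, and ZNF585A holds a second YY1 core on the other strand. The ETS core occurs in 4.14% and the YY1 core in 10.7% of all 35116 promoter windows of that length. The ZNF585A window has 17 and the ZNF585B window 19 CpG sites, with observed to expected ratios of 0.807 and 0.95, against a median of 0.579 over all windows. This is not particular to the pair: windows of the other members ran from 0.642 (ZNF570) to 0.997 (HKR1), all above that median. The ZNF383 window holds the YY1 core but not these ETS letters. RefSeq places this ZNF585B start inside the GENCODE gene rather than at its end, so the ZNF585B and ZNF383 windows do not overlap. All 8 genes were matched in the RefSeq table, with 15 windows between them.

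Because the pair is alike, reads could be shared between the paralogs. Of the 6120 windows of 91 bases in the longest ZNF585B transcript, 728 (11.9%) also occur in some ZNF585A transcript. Of the windows in the longest ZNF585A transcript, 8.54% occur in some ZNF585B transcript. In the last 500 bases, where 3′ reads gather, 0 of 410 windows were shared. No other 2 members shared a window of that length. Reads from the shared stretches could be given to either gene or left uncounted, which makes their separate levels uncertain, and introns were not compared.

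In KO teratomas the level of ZNF585B was several times lower than in WT, ZNF585A stood lower by a smaller factor, and the 6 other genes stood near their WT level. ZNF585B had 385 and 352 UMIs in WT, 60 and 69 in KO, then 199 and 132 in DATG. Scaled to library size (TMM), these were 12.0 and 10.6 CPM in WT, 1.83 and 2.03 in KO, then 5.86 and 6.84 in DATG. The groups did not overlap, with both KO libraries lowest, both DATG libraries between and both WT libraries highest. The group means were 11.3 ± 0.946, 1.93 ± 0.138 and 6.35 ± 0.693 CPM (SD, n = 2, as after every ± sign). The log2 fold change of KO against WT was -2.55 (SE 0.35). Among 490 tested zinc finger genes named ZNF it had the sixth lowest value, and it ranked 255 from the lowest among all 26365 tested genes.

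**Figure D1:**
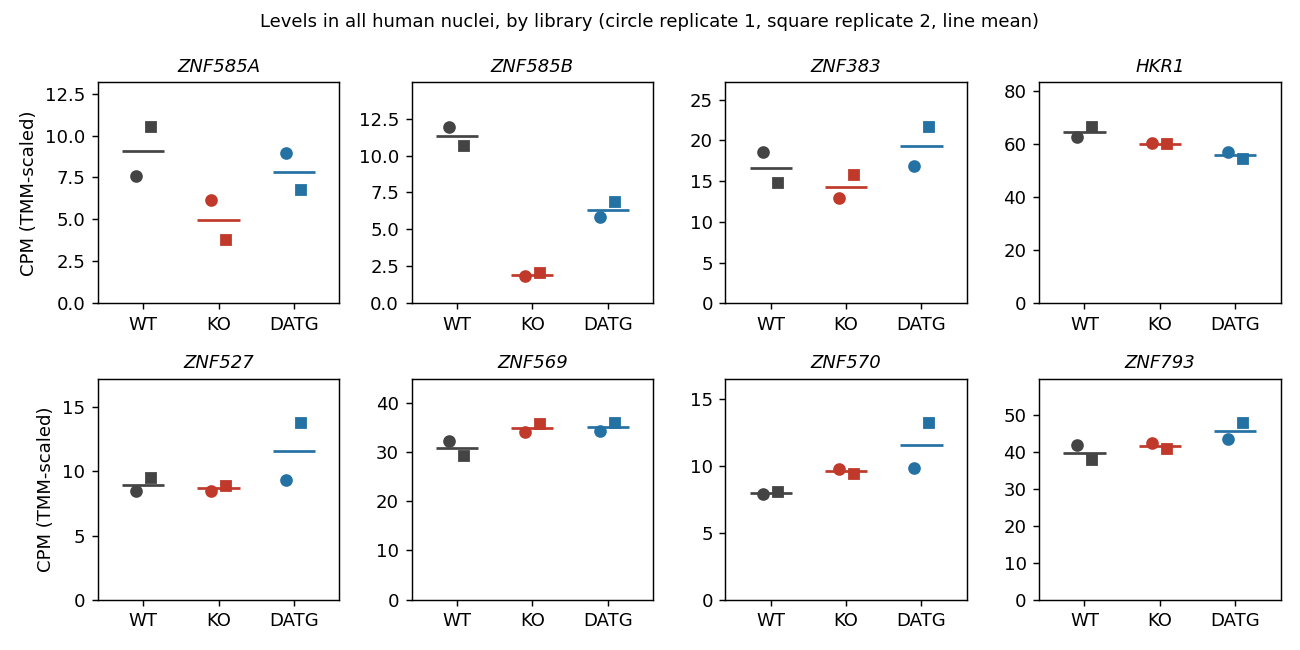
Level of each of the 8 zinc finger genes (TMM-scaled CPM, linear axes from 0) in each library, with circles for replicate 1, squares for replicate 2 and a line at the group mean. For ZNF585B both KO libraries (1.83 and 2.03 CPM) sit under both DATG libraries (5.86 and 6.84) and these under both WT libraries (12.0 and 10.6), while the 6 genes other than ZNF585A and ZNF585B differ little between WT and KO.

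ZNF585A, the paralog next to it, stood at 7.58 and 10.5 CPM in WT, 6.14 and 3.79 in KO, then 8.97 and 6.73 in DATG. Both KO libraries lay below both WT libraries, and the DATG libraries overlapped with WT. The log2 fold change of KO against WT was -0.87 (SE 0.41), and it moved from -0.56 without KO replicate 2 to -1.25 without KO replicate 1. The 2 genes together, a sum that does not depend on how the counted reads were split between them, stood at 19.5 and 21.2 CPM in WT, 7.97 and 5.82 in KO, then 14.8 and 13.6 in DATG. This sum kept the order seen for ZNF585B, with no overlap between groups. ZNF585B made up 61.2% and 50.2% of the UMIs of the pair in WT, 23.0% and 34.8% in KO, then 39.5% and 50.4% in DATG. The exact 95% intervals, which cover counting error only, ran from 18.0% to 41.9% over both KO libraries and from 46.4% to 65.0% over both WT libraries.

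ZNF383, the gene that starts head to head with ZNF585B and has been described as a repressor of MAP kinase signalling, stood at 18.5 and 14.7 CPM in WT, 12.9 and 15.8 in KO, then 16.9 and 21.7 in DATG. WT overlapped with KO and with DATG, while both DATG libraries lay above both KO libraries. The log2 fold change of KO against WT was -0.21 (SE 0.29). HKR1, a Krüppel-related zinc finger gene, stood at 62.6 and 66.6 CPM in WT, 60.3 and 59.9 in KO, then 57.0 and 54.4 in DATG. Its groups did not overlap, but they lay close: the log2 fold change was -0.10 (SE 0.19) for KO and -0.21 (SE 0.19) for DATG against WT.

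The members farther along the plus direction did not share the low KO level. ZNF527 stood at 8.45 and 9.48 CPM in WT, 8.46 and 8.88 in KO, then 9.36 and 13.8 in DATG. ZNF570 stood at 7.89 and 8.06 CPM in WT, 9.78 and 9.38 in KO, then 9.86 and 13.2 in DATG, so both KO and both DATG libraries lay above WT. The same was seen for ZNF569, also described as a repressor of MAP kinase signalling, at 32.4 and 29.2 CPM in WT, 34.2 and 35.7 in KO, then 34.3 and 35.9 in DATG. ZNF793 stood at 42.0 and 37.7 CPM in WT, 42.5 and 40.7 in KO, then 43.5 and 47.8 in DATG, with the DATG libraries above WT and the KO libraries overlapping with it. Over the 6 genes other than the paralog pair, the log2 fold change of KO against WT ran from -0.21 to 0.26.

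Across the 8 genes, 3 had both KO libraries below both WT libraries (ZNF585A, ZNF585B and HKR1), where 22.7% of all tested genes did. In the other direction there were 2 (ZNF569 and ZNF570), where 23.3% of all tested genes did. The first count holds ZNF585B, which was picked by this comparison. The full order of ZNF585B, with KO below DATG and DATG below WT, was found in 298 genes (1.13%). The members' median log2 fold change was -0.076, beside 0.011 for all genes. In the 6-library edgeR fit 0 of 26365 genes (0.0%) passed an adjusted p of 0.05 in KO vs WT. At an unadjusted p under 0.05 there were 1321 genes (5.01%). DESeq2 called 164 genes (0.46%), and edgeR called 607 (2.36%) when only the 4 libraries of these groups were fitted.

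The DATG libraries did not enter the choice of ZNF585B, but both comparisons with them share libraries with the one that did: the WT libraries in DATG vs WT and the KO libraries in DATG vs KO. ZNF585B stood lower in DATG than in WT in both libraries, with a log2 fold change of -0.83 (SE 0.33). The unadjusted p of edgeR's quasi-likelihood test was 0.0442 and the adjusted p 1.00, so the difference did not pass. DESeq2 gave an adjusted p of 1.00 for the same comparison. Against KO it stood higher in both DATG libraries, by 1.71 (SE 0.34) on the log2 scale. ZNF585B was picked for a KO level below WT, which favours low KO and high WT values. That favours the direction seen in both DATG comparisons. The difference from KO is therefore given as a description with no test, and the p against WT is no independent support. Mitochondrial RNA was higher in both DATG libraries, as given above, and its part in these differences was not tested.

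With edgeR none of the 8 genes passed in DATG vs WT and none of the 7 other than ZNF585B in DATG vs KO, where 0 of all tested genes (0.0%) passed in either comparison. An unadjusted p under 0.05 was reached by 773 genes (2.93%) in DATG vs WT and 1553 (5.89%) in DATG vs KO. DESeq2 called 86 genes (0.241%) and 69 genes (0.194%). The adjusted p of the members was 1.00 for each in DATG vs WT and, for the 7 other than ZNF585B, ran from 0.679 to 0.989 in DATG vs KO. In DATG vs WT both libraries lay below WT for 2 genes, ZNF585B and HKR1, where 11.7% of all tested genes did. For 3 genes, ZNF569, ZNF570 and ZNF793, both lay above WT, where 11.3% of all did. ZNF570 had the highest log2 fold change of the members in this comparison, at 0.53 (SE 0.30, edgeR adjusted p = 1.00), followed by ZNF527 at 0.37 (SE 0.32), and their DATG replicate 2 was the highest of all 6 libraries. In DATG vs KO both DATG libraries lay above KO for 6 members, where 20.7% of all tested genes did, and below for HKR1, where 21.1% did. The 6 were ZNF585A, ZNF585B, ZNF383, ZNF527, ZNF570 and ZNF793. The choice of ZNF585B favours its place among them, so the count is a description. ZNF585A had a log2 fold change of 0.66 (SE 0.41, edgeR adjusted p = 0.679) in DATG vs KO.

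The genes around the pair were read in the same fit. Of 38 annotated genes that start within 500 kb of the ZNF585B start, 25 were tested, and 17 of these are not members. In KO vs WT 13 of the 17 were above and 4 below 0, with log2 fold changes from -0.33 to 0.58 and a median of 0.12. Both KO libraries lay below both WT libraries for 2 of the 17 and above them for 6, where 22.7% and 23.3% of all tested genes did. The values at both ends belong to zinc finger genes, ZNF568 (-0.33, SE 0.28, edgeR adjusted p = 0.998) and ZNF540 (0.58, SE 0.43, adjusted p = 0.998). In DATG vs WT 6 of the 17 were above 0 and 11 below, with a median of -0.099, and in DATG vs KO 5 were above and 12 below, with a median of -0.24. With edgeR 0 of the 17 passed in any of the 3 comparisons, and 0 had an unadjusted p under 0.05. DESeq2 was not summarised for them.

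**Figure D2:**
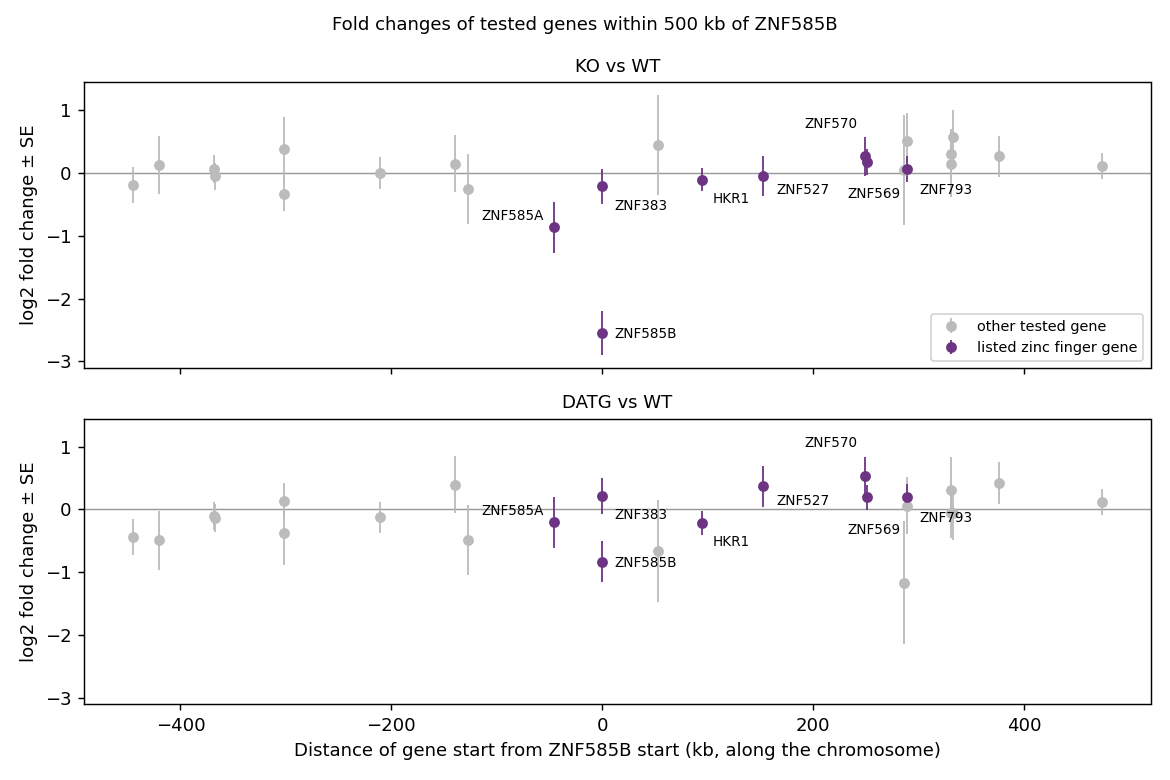
Log2 fold change with its standard error for the 25 tested genes that start within 500 kb of ZNF585B, against the distance of their start from that of ZNF585B (kb), for KO vs WT (top) and DATG vs WT (bottom). In the upper panel ZNF585B (-2.55) lies below all others, ZNF585A (-0.87) is the next lowest and the remaining genes lie between -0.33 and 0.58.

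A wider list of 22 other zinc finger genes of 19q13.12 repeats the protein-coding genes among the 17 above, so the 2 sets are not independent. It had 16 above and 6 below 0 in KO vs WT (median 0.061), 10 and 12 in DATG vs WT (-0.020) and 10 and 12 in DATG vs KO (-0.078). With edgeR 0 of the 22 passed in each, with 0 at an unadjusted p under 0.05. ZNF565 had the lowest p of the list in DATG vs KO (log2 fold change -0.98, SE 0.51, edgeR adjusted p = 0.679). It stood at 66.7 and 99.8 CPM in WT, 125 and 106 in KO, then 87.3 and 29.7 in DATG, with DATG replicate 2 the lowest of all. Across the 490 tested ZNF genes of the genome, 189 were above and 301 below 0 in KO vs WT, with a median of -0.056 beside 0.011 for all genes (of which 13458 were above and 12907 below 0), and 15 had an unadjusted p under 0.05. On chromosome 19 alone 79 of 236 were above and 157 below 0, with a median of -0.10. In DATG vs WT 265 of the 490 were above and 225 below 0 (median 0.025 beside 0.025), and in DATG vs KO 296 and 194 (median 0.11 beside 0.028). KO vs WT and DATG vs KO share the KO libraries, so their counts are not independent of each other. With edgeR 0 of these genes passed, and 14 had an unadjusted p under 0.05 in DATG vs WT and 15 in DATG vs KO.

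Genes that work with KRAB proteins were listed as well. Of 23 tested corepressor and heterochromatin genes, 11 were above and 12 below 0 in KO vs WT, 16 and 7 in DATG vs WT, and 16 and 7 in DATG vs KO, and 0 passed with edgeR. TRIM28, the scaffold that KRAB domains bind, stood at 31.9 and 33.7 CPM in WT, 31.2 and 28.5 in KO, then 42.8 and 49.9 in DATG. Both DATG libraries lay above the other 4, with log2 fold changes of 0.50 against WT (SE 0.21, edgeR adjusted p = 1.00) and 0.64 against KO (SE 0.21, unadjusted p = 0.0231, edgeR adjusted p = 0.679). Of 14 tested DNA methylation genes, 4 were above and 10 below 0 in KO vs WT, 8 and 6 in DATG vs WT, and 9 and 5 in DATG vs KO. The de novo methyltransferase DNMT3B had the smallest p among them in KO vs WT (0.54, SE 0.35, edgeR adjusted p = 0.998). Of 5 tested genes tied to LNCPRESS1 or pluripotency, 3 were above and 2 below 0 in KO vs WT, 3 and 2 in DATG vs WT, and 2 and 3 in DATG vs KO. SOX2, a regulator of pluripotent and neural progenitor cells, had 0.62 in KO vs WT (SE 0.26, edgeR adjusted p = 0.998). With edgeR 0 of these genes passed in any comparison.

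Teratomas of the groups differ in their mix of tissues, so ZNF585B was also read class by class, with UMIs summed per library and class and CPM taken over the UMIs of that class. Lower ZNF585B in KO was found in each class that could be compared: the pooled KO level was below WT in 10 of 10 classes with at least 300000 UMIs in both groups. Both KO libraries lay below both WT libraries in 8 of 8 classes where each library reached that depth. Over all 26365 tested genes the first held for 364 (1.38%) and the second for 18 (0.0683%), while in a single class both KO libraries lay below both WT libraries for 12.3% to 22.6% of genes. Since ZNF585B was chosen by this contrast, nothing is read from these shares. By cluster, named or not, the pooled KO level was below WT in 26 of 26 (27 genes, 0.102%), and both KO libraries were below both WT libraries in 13 of 14.

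In WT the ZNF585B level differed between classes, but most neighbours in the order lay within the spread of 2 libraries. By mean, gut epithelium-like nuclei (10.7 and 22.0 CPM) and mesenchyme and fibroblast-like nuclei (17.1 and 14.9 CPM, from 69 and 124 UMIs) came first. Endothelial-like nuclei stood at 13.2 ± 8.87, hepatocyte and yolk sac-like at 11.5 ± 6.32, squamous epithelium-like at 11.1 ± 6.78, and neural progenitor-like at 9.19 ± 4.62 CPM. Choroid plexus and ciliated-like (8.51 ± 1.30), Schwann and neural crest-like (8.19 ± 4.63), neuron-like (6.80 ± 0.0982) and melanocyte and pigment-like nuclei (4.23 ± 1.66) followed. Both mesenchyme values lay above both values of the neural progenitor, choroid plexus, Schwann, neuron and melanocyte classes. Each class overlapped with the next in the order, except that both neuron-like values lay above both melanocyte-like values.

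In KO each class with enough UMIs was at or below 4.20 CPM in every library. Mesenchyme and fibroblast-like nuclei stood at 1.42 and 0.457 CPM, from 1 UMI in each library among 703640 and 2189302 UMIs. Neuron-like nuclei stood at 6.73 and 6.86 CPM in WT, 1.08 and 0.893 in KO, then 3.60 and 5.70 in DATG. Neural progenitor-like nuclei stood at 12.5 and 5.92 CPM in WT, 2.49 and 3.61 in KO, then 5.50 and 8.08 in DATG. Schwann and neural crest-like nuclei of KO had 0 UMIs among 1655854, which allows up to 1.81 CPM (3 counts over the group). The pooled WT level there, 8.41 CPM from 11 UMIs, was 4.64-fold above that limit. The WT libraries differed, at 4.92 and 11.5 CPM, so 4.64 is not a lower bound. The spread between the 2 WT libraries was wide in several classes, and the KO values of most classes rest on fewer than 6 UMIs.

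**Figure D3:**
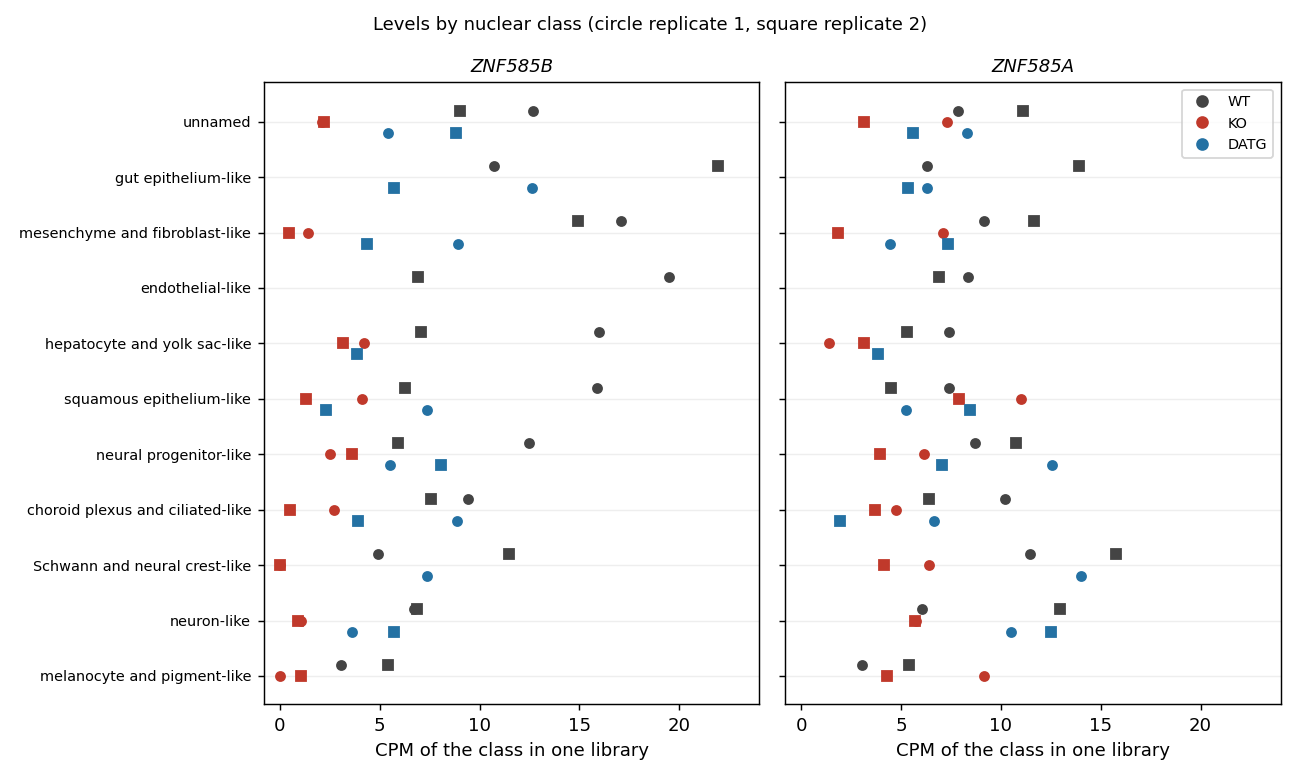
Level of ZNF585B (left) and ZNF585A (right) in each library with at least 300000 UMIs in a class of nuclei, for the classes that have WT values (CPM of the class, linear axis), with circles for replicate 1 and squares for replicate 2, and the unnamed nuclei in the top row. On the left no KO value exceeds 4.20 CPM and each KO value drawn lies below both WT values of its class. On the right both KO values lie below both WT values in 6 of 8 named classes and in the unnamed nuclei. There KO and WT overlap in melanocyte and pigment-like nuclei, and squamous epithelium-like nuclei have higher KO values.

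DATG levels of ZNF585B lay below WT in 10 of 10 classes when pooled, where 3.46% of all tested genes did so in each, but both libraries lay below both WT libraries in 2 of 6 classes, mesenchyme and fibroblast-like (23.7% of all tested genes) and neuron-like (14.2%). Only the 3 named classes whose smallest library held the most nuclei were tested, and mesenchyme and fibroblast-like nuclei were not among them. The choice of ZNF585B by KO below WT favours lower DATG values here too. In the 3 classes the log2 fold change of DATG against WT was -0.25 (SE 0.66) in choroid plexus and ciliated-like, -0.65 (SE 0.55) in neuron-like and -0.47 (SE 0.56) in neural progenitor-like nuclei. The edgeR adjusted p was 1.00, 1.00 and 0.999, and with edgeR 0 genes (0.0%) passed in each class, with 279, 365 and 688 at an unadjusted p under 0.05. DESeq2 was not run within classes, and a fit of the 4 libraries of WT and KO called 1 gene (0.00693%) in choroid plexus and ciliated-like nuclei. In KO against WT, as a description, the same classes had -2.45 (SE 0.81), -2.72 (SE 0.57) and -1.58 (SE 0.52). The first was -3.83 without KO replicate 1 and the last -0.95 without WT replicate 1.

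The other members were read by class in the same way. ZNF585A was lower in pooled KO nuclei in 7 of 10 classes, with both KO libraries below both WT libraries in 6 of 8 and above them in 1. In a single class 12.3% to 22.6% of all tested genes had both KO libraries below, as given above. The class with higher KO values was squamous epithelium-like, with 7.40 and 4.48 CPM in WT (7 and 5 UMIs) and 11.0 and 7.90 in KO (8 and 6 UMIs), an order that 14.2% of all tested genes had in that class. HKR1 was lower in both DATG libraries than in both WT libraries in 6 of 6 classes, an order that 0.231% of all tested genes had in each. In neuron-like nuclei, for example, HKR1 stood at 58.5 and 51.9 CPM in WT and 48.1 and 45.6 in DATG, a log2 fold change of -0.17 (SE 0.23) that did not pass (edgeR adjusted p = 1.00). ZNF570 was higher in pooled DATG than in pooled WT nuclei in 10 of 10 classes, as were 1.18% of all tested genes. By library, both DATG values lay above both WT values in 3 of 6 classes. In a single class, over 5 of these 6, 8.26% to 10.5% of all tested genes did. In mesenchyme and fibroblast-like nuclei ZNF570 stood at 10.6 and 6.62 CPM in WT and at 5.21 and 12.2 in DATG. The number of classes with a lower pooled level in KO was 7 of 10 for ZNF383 and HKR1 and 8 for ZNF527 and ZNF793. It was 6 for ZNF569 and 5 for ZNF570, so the 7 of ZNF585A does not set it apart from these genes. How many of all tested genes reach such counts was not computed.

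Giving each of 5 classes with enough UMIs in every library the same weight, an alternative added after the data were seen, took out unequal shares of these classes. The mean level of ZNF585B was then 10.3 ± 2.83 CPM for WT, 1.86 ± 0.709 for KO and 5.86 ± 1.40 for DATG, which gave log2 ratios of -2.47 for KO and -0.82 for DATG against WT. For ZNF585A the ratios were -0.60 and -0.19. The other 6 genes lay between -0.16 and 0.040 in KO, and ZNF383 and ZNF793 turned from above to just below 0 in DATG (-0.028 for both).

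Few nuclei held a ZNF585B UMI at all. The share was 6.27% and 2.94% in WT, 0.614% and 0.860% in KO, then 1.74% and 2.05% in DATG, and a positive nucleus held 1.05 to 1.16 UMIs on average. WT replicate 1 was also the deepest library, with a median of 3872.5 UMIs against 2449 in WT replicate 2. With each nucleus thinned to 1000 UMIs, leaving out 475 to 1101 shallower nuclei per library, the share was 1.55% and 1.07% in WT, 0.136% and 0.187% in KO (12 of 8792 and 13 of 6965 nuclei), then 0.523% and 0.709% in DATG. The 3 groups did not overlap at either depth. Mouse nuclei, which should not express the human gene, gave the background: 2 of 1389 (0.144%) held a ZNF585B UMI at median depths from 2548 to 5487 UMIs per library. These nuclei were not thinned, and at full depth both KO shares lay above their pooled share. In the KO libraries alone 0 of 191 and 1 of 324 mouse nuclei held one. These are too few to place the KO shares above the background of their own libraries.

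**Figure D4:**
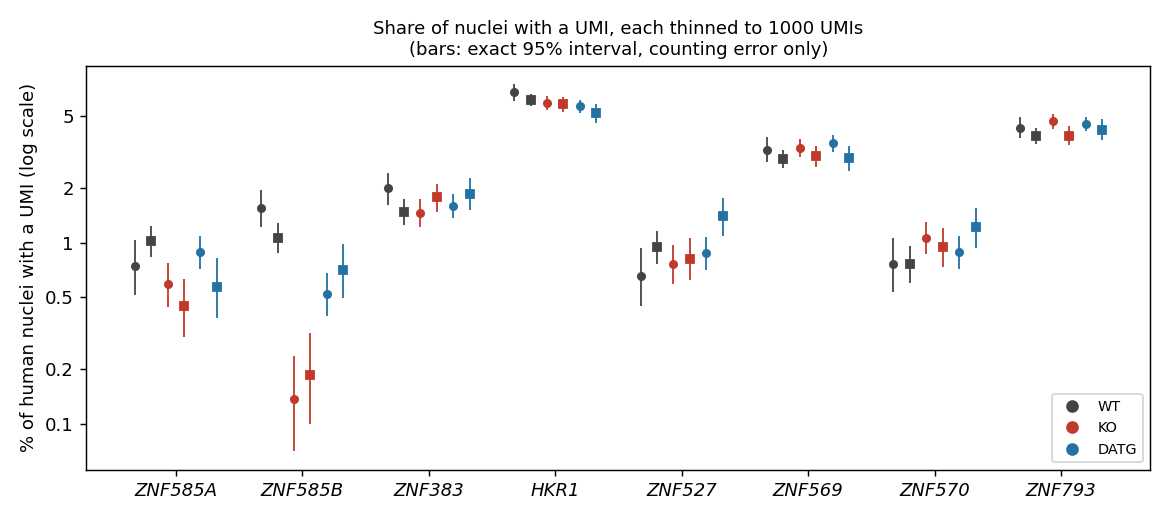
Share of human nuclei with at least 1 UMI of each gene after thinning every nucleus to 1000 UMIs (percent, log axis), by library, with exact 95% intervals for counting error. The ZNF585B shares of KO (0.136% and 0.187%) lie below those of DATG (0.523% and 0.709%) and WT (1.55% and 1.07%), and the other genes show smaller differences.

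For ZNF585A the thinned shares were 0.743% and 1.02% in WT, 0.591% and 0.445% in KO, then 0.888% and 0.571% in DATG, with KO below WT and DATG overlapping with both. HKR1 was found in 6.77% and 6.17% of thinned nuclei in WT, 5.93% and 5.83% in KO, then 5.66% and 5.20% in DATG. Pooled over all libraries, mouse nuclei held a UMI of the members in 0.144% (ZNF585A, ZNF570) to 1.22% (HKR1), below the unthinned human share of the same gene in each library.

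Levels of other genes were compared with the pattern of ZNF585B over the 6 libraries, as a description. Among 13410 genes with a mean of at least 5 CPM, those with the highest Pearson correlation of log2 CPM were HAAO (0.995), FZD4 (0.991), PHYHD1 (0.980), EIF2D (0.979) and CASC9 (0.977), none of them on chromosome 19. HAAO, an enzyme of tryptophan breakdown, stood at 19.6 and 19.8 CPM in WT, 13.3 and 13.6 in KO, then 17.1 and 18.3 in DATG, a smaller range than that of ZNF585B. FZD4, a receptor for WNT and norrin, stood at 18.5 and 15.9 CPM in WT, 8.43 and 8.29 in KO, then 12.8 and 14.7 in DATG. These points share libraries and 3 group means, so many genes can reach such values. The members themselves were less like ZNF585B: ZNF585A had 0.76, ZNF383 0.53, HKR1 0.26 and ZNF527 0.25, while ZNF793 (-0.064), ZNF570 (-0.26) and ZNF569 (-0.59) were below 0.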

How the data were processed

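The authors deposited, for each of 6 libraries, raw UMI counts per gene and barcode on a joint human and mouse reference, not normalized. Cell Ranger made them, in version 8.0.1 by the submitters' processing notes and 8.0.0 per the file headers, with the handling of introns and strand not given in the sources used here. Members, gene lists and markers were chosen with earlier results of these data known.

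Barcodes needed at least 500 UMIs, 300 genes and 90% of UMIs from 1 species. Doublets were called against simulated doublets at an assumed rate of 0.8% per 1000 nuclei, which removed 4236 human barcodes (4.44% to 9.80% per library). Clusters used 2000 variable genes (without the members and mitochondrial genes), 30 principal components, 20 neighbours and Leiden resolution 1. A class level was given only with at least 300000 UMIs.

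UMIs were summed per library and tested in edgeR 4.0.16 with its robust quasi-likelihood test (TMM scaling, default filter, 6 libraries in 1 fit, Benjamini-Hochberg adjustment over all tested genes, threshold 0.05). On simulated counts for DATG vs WT (25937 genes) it recovered 2 of 82 genes at a 2-fold change, 15 of 54 at 4-fold and 47 of 64 at 8-fold, and made 2 false calls. Alternatives were DESeq2 1.42.0, RLE scaling, no filter, 4 libraries, a replicate block, each library left out, at least 1000 UMIs per nucleus, and doublets kept. Human coordinates come from GENCODE 29, matched by gene identifier. The zinc finger family is every human feature named ZNF with a number and at most 1 letter. Named were the 8 members, LNCPRESS1, of each list genes among the 3 with the smallest p in a comparison, and the 5 genes most like ZNF585B. ZNF568 and ZNF540, at the ends of the range near ZNF585B, are also among those 3. HKR1 and ZNF570 were singled out by class after their values were seen. Promoter windows were aligned globally.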

Additional observations from a re-analysis of the deposited data

Results flagged for a closer look

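Some members stood on opposite sides of WT in different classes of nuclei, with both libraries of a group beyond both WT libraries in each class named. All 8 genes were searched over 5 classes in 2 comparisons, the difference between classes was not tested, and most values rest on few UMIs. Over all tested genes 12.3% to 22.6% had both KO libraries below WT in one of these classes and 14.2% to 16.8% above, and for DATG these shares were 14.2% to 23.7% and 8.26% to 10.5%. Such a split, below in 1 class and above in another, was found for 20.9% of all tested genes in KO vs WT and 12.9% in DATG vs WT. For ZNF585A the log2 ratio of the mean CPM of KO to WT was -0.98 in choroid plexus and ciliated-like, -1.22 in mesenchyme and fibroblast-like, -0.95 in neural progenitor-like and -0.73 in neuron-like nuclei, but 0.67 in squamous epithelium-like nuclei. For ZNF569 it was -0.13 in neural progenitor-like and 0.70 in squamous epithelium-like nuclei. In DATG against WT the ratio for ZNF569 was -0.27 in choroid plexus and ciliated-like and -0.12 in neuron-like nuclei, and 0.26 in mesenchyme and fibroblast-like and 0.25 in squamous epithelium-like nuclei. For ZNF793 the ratio of KO to WT was -0.068 in choroid plexus and ciliated-like, 0.42 in mesenchyme and fibroblast-like and -0.14 in neuron-like nuclei. ZNF585B showed no such split in the 5 classes, but its choice by KO below WT favours this, so nothing is read from it. With 2 libraries per group no single library could be tested as standing apart from its group.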

How the results depend on the processing

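The number of genes past the edgeR threshold depended on the DATG pair. It was 0 in each all-nuclei comparison with 6 libraries, 607 in KO vs WT with only the 4 libraries of those groups (common coefficient of biological variation 23.9% against 38.5%), and with DESeq2 164 in KO vs WT, 86 in DATG vs WT and 69 in DATG vs KO. With 1 library left out it ran from 0 to 736, 0 to 2278 and 0 to 6622 for these comparisons, and all values above 0 came from leaving out a DATG library: 736, 2278 and 6622 without replicate 1, and 675, 104 and 3 without replicate 2. These fits assume that the lone DATG library varies like the other groups. Within classes the ranges were 0 to 13 and 0 to 96 for choroid plexus and ciliated-like (KO vs WT, then DATG vs WT), 0 to 4 and 0 to 0 for neuron-like and 0 to 7 and 0 to 60 for neural progenitor-like nuclei. The 4-library KO vs WT fit called 1 gene in choroid plexus and ciliated-like nuclei.

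ZNF585B kept its direction in KO vs WT and in both DATG comparisons over all nuclei in each alternative run, with leave-one-out ranges of -2.63 to -2.46, -0.95 to -0.74 and 1.61 to 1.80. Values that changed sign with 1 library left out ranged as follows: ZNF527 -0.13 to 0.036 and ZNF793 -0.014 to 0.14 in KO vs WT, ZNF585A -0.46 to 0.054 in DATG vs WT, and ZNF569 -0.026 to 0.044 in DATG vs KO, where it was -0.0020 with no filter. Within classes, in DATG vs WT, ZNF585B ranged from -1.01 to 0.056 in choroid plexus and ciliated-like and from -0.87 to 0.15 in neural progenitor-like nuclei, and ZNF585A from -0.18 to 0.94 in neuron-like and from -0.39 to 0.39 in neural progenitor-like nuclei. With equal weight for 5 classes ZNF383 and ZNF793 stood at -0.028 each in DATG against WT. The cause of these changes was not tested. Of 424 alternative values of member fold changes, 406 were counted as unchanged. For KO vs WT and for equal class weight this meant direction and size. For the other DATG values it meant direction and side of the threshold, whatever their size. Of the rest 13 changed sign, 3 moved in size and 2, in DATG comparisons, crossed the threshold.

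The ratio of WT to KO shares of nuclei with a ZNF585B UMI was 6.25 at full depth and 8.09 thinned to 1000 UMIs. Deviations of samples with the same replicate number correlated over genes at 0.112 (WT with KO), -0.137 (WT with DATG) and 0.348 (KO with DATG). The labels give these samples a shared number and nothing more, and whether they share a batch was not tested. A replicate block gave 0 calls in each comparison. At this depth many class levels of ZNF585B rest on under 10 UMIs.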
